A study of Homo sapiens with 10 samples.

Results

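Overexpression of P300 was compared with GFP alone in A549, a line from a human lung adenocarcinoma, after every culture had received dexamethasone (Dex), a synthetic glucocorticoid. The comparison holds 5 of the 10 libraries of the series: P300 Dex replicates 1 and 2 and GFP Dex replicates 1 to 3, grouped by the construct and treatment named in the labels. Cells were transfected with 1 µg of a plasmid for GFP or for EP300 joined to GFP, kept in charcoal-stripped serum for 48 h, given 100 nM Dex for 1 h, fixed in ethanol and sorted for GFP by flow cytometry. All 5 libraries therefore share the transfection, the sort and the hormone, and the other 5 libraries received ethanol (EtOH) in place of Dex. Whether replicates are separate cultures is not stated, so the p-values rest on library-to-library spread that may be only technical.

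P300 (gene EP300) is a histone acetyltransferase that many transcription factors recruit to enhancers and promoters, where it acetylates histones and other proteins. CREBBP is its close paralog. Dex activates the glucocorticoid receptor (gene NR3C1), which binds DNA and uses P300 among its coactivators, and in lung epithelial cells it quickly induces genes such as TSC22D3, PER1 and DUSP1 and lowers many inflammatory transcripts. Activators with a limited supply of P300 can compete for it, which is the question behind the series title.

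EP300 held 0.0359%, 0.0303% and 0.0320% of all counts in GFP Dex replicates 1 to 3. It held 28.8% in P300 Dex replicate 1 and 2.42% in replicate 2. These counts include the plasmid's transcript. Relative to the GFP Dex mean, EP300 as counts per 1000000 counts of all other genes (CPM) was 1167-fold higher in replicate 1 and 83.0-fold higher in replicate 2, a 14.1-fold gap between libraries of the same label. EP300 was therefore left out of library sizes, and every gene is described in each P300 Dex library separately. The edgeR quasi-likelihood value for EP300 across groups was a log2 fold change of 9.29 ± 0.97 (SE; adjusted p = 0.0100, n = 2 and 3). CREBBP had 378, 336 and 363 CPM in GFP Dex and 287 and 324 CPM in P300 Dex, with a log2 fold change of -0.24 ± 0.23 and an adjusted p of 0.75. NR3C1 had 255, 180 and 238 CPM in GFP Dex and 214 and 129 CPM in P300 Dex, with a log2 fold change of -0.39 ± 0.35 and an adjusted p of 0.72, and its groups overlapped.

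Totals ran from 9215550 to 13122367 counts in the 5 Dex libraries and from 2278717 to 12177553 in the EtOH libraries, which enter the planned fit. Over genes tested, log2 CPM correlated at Pearson's r of 0.974 to 0.986 between GFP Dex libraries and 0.837 between the P300 Dex libraries, a description across genes, which are not independent replicates. The common dispersion, edgeR's squared relative spread beyond counting error, was 0.0530 in GFP Dex and 0.544 in P300 Dex. The planned and blocked edgeR fits nonetheless give each gene the same spread in all groups. Their p-values rest on that assumption, which these 2 values do not meet. All 12 A549 markers listed were in the table. Their summed level was 15376, 23711 and 18010 CPM in GFP Dex, and 8915 and 29746 CPM in P300 Dex, below and above all GFP Dex libraries. Ribosomal RNA genes held 4.63% of counts in GFP Dex replicate 2 and 0.210% to 0.389% in the other Dex libraries. The labels describe both a poly(A) library kit and a total RNA kit, and which was used for which library cannot be told.

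The planned test, edgeR on all 10 libraries with 4 group means and the contrast of P300 Dex with GFP Dex, called 1 of 19843 genes at an adjusted p under 0.05, or 0.00504% higher in P300 and 0% lower. At an unadjusted p under 0.05 there were 1804 higher and 688 lower genes. The called gene was COL6A3, which encodes a chain of type VI collagen of the extracellular matrix. It had 0.806, 0.320 and 0.545 CPM in GFP Dex, and 113.5 and 33.4 CPM in P300 Dex. Both P300 Dex libraries lay far above every GFP Dex library, with a log2 fold change of 7.01 ± 0.61 (SE) and an adjusted p of 0.0031. COL6A3 passed in 25 of the 30 settings run and missed the threshold with the 5 Dex libraries alone (adjusted p = 0.167), with replicate numbers 1 and 2 only (0.165), with limma-voom (0.0971), and without GFP Dex replicate 2 (0.0567) or replicate 3 (0.0723).

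The number of calls varied widely between fits. Of 30 settings, the planned test, 24 other settings listed with it and 5 added after seeing the data, 21 called 0 or 1 gene and 9 called 10 or more. Libraries of the same replicate number deviated together from their group means, though those of number 1 also did so with number 3, as given under the processing. A fit of the 5 Dex libraries that blocks on the replicate number is therefore reported beside the planned one. It called 183 of 17795 genes, 173 higher (0.972%) and 10 lower (0.0562%). That fit has 1 residual degree of freedom, so its estimate of the spread leans on all genes pooled. The same block in the fit of all 10 libraries called 1 gene, and each blocked p-value below comes from the 5-library fit. GFP Dex replicate 3 has no partner of its number there, so the block fits it exactly. The contrast therefore rests on replicates 1 and 2 of each group. Leaving replicate 3 out gave 203 higher and 7 lower genes, which held all 173 higher and 7 of the 10 lower ones. That overlap is no check on the calls, since replicate 3 could change only the filter, the scaling and the pooled spread. DESeq2 on 10 libraries called 572 higher and 118 lower genes, of which 158 and 4 were among those 173 and 10, and limma-voom with quality weights on 10 libraries gave 69 higher genes and 0 lower, with 180 lower at an unadjusted p under 0.05. A count of calls from these libraries is therefore not a settled number, and the genes below are given with their values in each library.

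**Figure D1:**
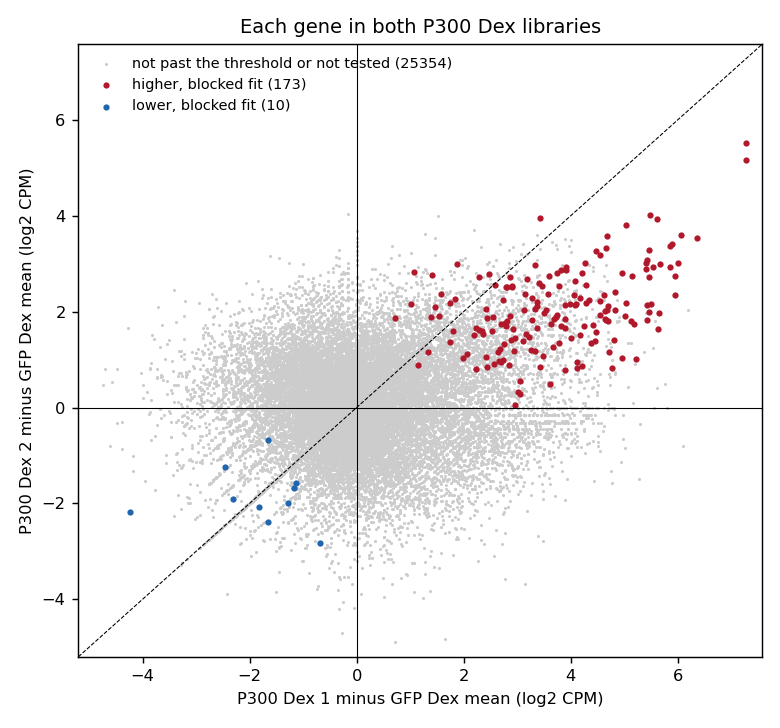
Each point is a gene, placed by its log2 CPM in P300 Dex replicate 1 (horizontal) and replicate 2 (vertical) minus the mean of the 3 GFP Dex libraries, with equality dashed. The 173 genes called higher in the blocked fit (red) lie mostly below the dashed line, at a median of 3.69 in replicate 1 and 1.98 in replicate 2, and the 10 called lower are blue.

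The 173 genes called higher in the blocked fit were more often quiet or lowly expressed than the genes tested. Their mean in GFP Dex was under 1 CPM for 55 (31.8%, against 11.5% of the 17795 genes tested) and at least 10 CPM for 40 (23.1%, against 54.2%). Their median difference from the GFP Dex mean was 3.69 in P300 Dex replicate 1 and 1.98 in replicate 2 on the log2 CPM scale, and it was larger in replicate 1, the library with more EP300, for 159 of 173 (91.9%, against 52.7% of the genes tested). This fit chose the genes on these libraries, so these figures describe the list and test nothing. In the planned fit 172 of the 173 had an unadjusted p under 0.05, but their adjusted p had a median of 0.120 and reached 0.466. In the EtOH libraries, which are separate, the log2 fold change of P300 over GFP was positive for 169 of the 173, against 38.8% of all genes tested, with a median of 3.06; those libraries carry the same replicate numbers, and P300 EtOH replicate 2 is shallow, with 2278717 counts and 11861 genes at 0. The difference between the P300 effect with Dex and with EtOH was called for 0 of 19843 genes with edgeR, with 1794 at an unadjusted p under 0.05. Median GC content of the 173 genes was 58.7%, against 48.7% of all genes tested in that fit. With a correction for GC content the blocked fit called 174 higher genes, 141 of them shared. It called 17 lower genes, which held only 5 of the 10 lower ones. The part of GC content in these calls was not tested beyond that fit.

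Promoter sequence of the 4 genes among the 10 smallest p-values that were nearly silent in GFP cells and have a RefSeq entry is shown, since these promoters had little output in GFP cells. Each run is the 250 bases before the annotated start, 5′ to 3′ on the gene's strand, from RefSeq on GRCh38.p14. Capitals mark matches on either strand to the motifs searched, AP-1 (TGACTCA), CRE (TGACGTCA), the TATA box (TATAAA), the CCAAT box and the GC box (GGGCGG).
COL6A3, chr2:237414165-237414414, minus strand: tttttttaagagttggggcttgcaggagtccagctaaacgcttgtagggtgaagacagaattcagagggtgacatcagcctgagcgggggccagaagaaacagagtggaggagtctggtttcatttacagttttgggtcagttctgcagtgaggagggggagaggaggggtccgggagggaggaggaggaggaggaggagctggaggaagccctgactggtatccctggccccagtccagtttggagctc
SLC17A7, chr19:49441528-49441777, minus strand: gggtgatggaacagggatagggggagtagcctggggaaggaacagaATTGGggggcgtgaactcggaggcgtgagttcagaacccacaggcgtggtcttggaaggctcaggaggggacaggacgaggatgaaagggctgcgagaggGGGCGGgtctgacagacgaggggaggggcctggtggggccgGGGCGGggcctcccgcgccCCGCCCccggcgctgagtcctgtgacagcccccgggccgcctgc
SHISA7, chr19:55443301-55443550, minus strand: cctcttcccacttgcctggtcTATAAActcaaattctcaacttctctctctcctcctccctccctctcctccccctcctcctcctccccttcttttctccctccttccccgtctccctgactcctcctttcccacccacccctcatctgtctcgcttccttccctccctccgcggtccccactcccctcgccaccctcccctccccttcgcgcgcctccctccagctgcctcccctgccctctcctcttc
XIRP1, chr3:39192596-39192845, minus strand: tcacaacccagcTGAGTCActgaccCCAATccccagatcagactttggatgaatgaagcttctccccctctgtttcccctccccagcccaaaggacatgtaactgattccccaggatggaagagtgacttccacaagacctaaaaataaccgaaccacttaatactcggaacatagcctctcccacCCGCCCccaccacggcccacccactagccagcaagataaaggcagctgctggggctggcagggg
No motif searched was in the COL6A3 window. SLC17A7 held 3 GC boxes and 1 CCAAT, SHISA7 held 1 TATAAA, 229 bases before the start, and XIRP1 held 1 AP-1 match, 1 CCAAT and 1 GC box. Of the higher genes, 97 had a promoter in the table: 69.1% of them held a GC box, against 61.2% of 12475 promoters of genes in the count table, and 5.15% held AP-1, against 3.08%. Shares for CRE were 2.06% and 2.53%, for TATAAA 6.19% and 6.87%, and for CCAAT 34.0% and 34.2%. A match describes letters in this window and no binding.

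The genes with the next smallest p-values in the planned test did not pass its threshold, at adjusted p of 0.0727 to 0.0732, and all of them passed in the blocked fit. SLC17A7, a vesicular glutamate transporter of neurons, had 0.484, 0.559 and 0.311 CPM in GFP Dex and 42.5 and 7.54 CPM in P300 Dex. Its log2 fold change was 5.76 ± 0.75 (blocked adjusted p = 9.75e-09), and its groups did not overlap. XIRP1, which binds actin in skeletal and heart muscle, had 0.645, 1.12 and 1.17 CPM in GFP Dex and 93.7 and 13.1 CPM in P300 Dex. CDH15, the cadherin of skeletal muscle, was listed at 0 in GFP Dex replicates 1 and 2 and had 0.156 CPM in replicate 3, and it had 37.2 and 8.53 CPM in P300 Dex. SHISA7, a membrane protein of synapses, had 0.403, 0.160 and 0.311 CPM in GFP Dex and 20.2 and 3.34 CPM in P300 Dex. In each of these genes the lower P300 Dex library was replicate 2.

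Genes with some expression in GFP cells also stood apart. KCNK6, a two-pore potassium channel, had 9.03, 10.5 and 12.1 CPM in GFP Dex and 143 and 40.7 CPM in P300 Dex, with a log2 fold change of 3.12 ± 0.45 (blocked adjusted p = 4.13e-06). CCDC88B had 5.00, 8.31 and 7.01 CPM in GFP Dex and 66.1 and 32.9 CPM in P300 Dex. RAPGEF3, the cyclic AMP sensor EPAC, had 2.50, 2.72 and 2.18 CPM in GFP Dex and 27.8 and 15.8 CPM in P300 Dex. APOE, the lipid-carrying apolipoprotein, had 4.03, 3.20 and 3.66 CPM in GFP Dex and 38.3 and 15.7 CPM in P300 Dex, with a log2 fold change of 2.89 ± 0.44 (blocked adjusted p = 0.000384). These 4 genes had no overlap between groups, and their values in replicate 1 were again the higher ones.

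Among the better expressed genes called higher in the blocked fit was a chromatin regulator. HDAC5, a class II histone deacetylase, had 25.9, 37.8 and 20.01 CPM in GFP Dex and 198 and 102 CPM in P300 Dex, with a log2 fold change of 2.42 ± 0.43 (adjusted p = 0.0752; blocked 0.000338). HDAC5 was the 1 of 16 deacetylase genes that the blocked fit called, against 0.972% called higher over all genes tested. Further genes, chosen after their values were seen, were PLEC, which links the cytoskeleton to junctions, at 6269, 4817 and 6686 CPM in GFP Dex and 12924 and 10867 CPM in P300 Dex, and the retinoic acid receptor RARA at 36.7, 29.8 and 30.2 CPM against 175 and 58.1 CPM. FTH1, the ferritin heavy chain that stores iron, had 727, 221 and 543 CPM in GFP Dex and 1317 and 2294 CPM in P300 Dex, one of the few called genes that were higher in replicate 2. PLEC, RARA and FTH1 did not pass the planned test. They passed in 3, 6 and 4 of the 30 settings, and HDAC5 passed in 7.

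**Figure D2:**
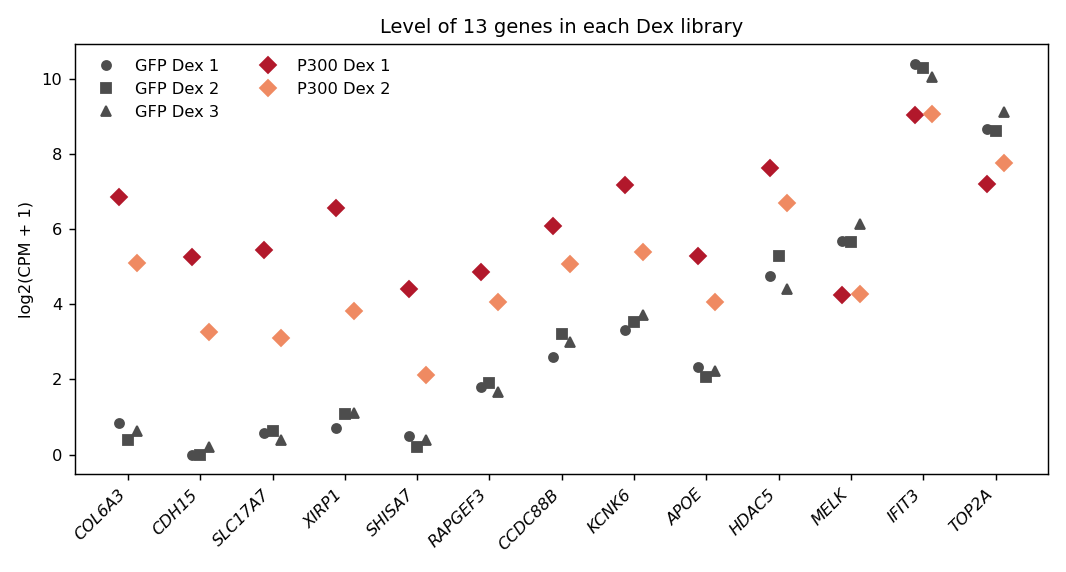
Level of 13 genes as log2(CPM + 1) in each Dex library, with GFP replicates in grey and P300 replicates 1 and 2 as dark and light diamonds. COL6A3 to HDAC5 sit above all GFP libraries in both P300 libraries, while MELK, IFIT3 and TOP2A sit below them.

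Gene lists are described by how many members had both P300 Dex libraries above, or below, all 3 GFP Dex libraries. Over all 25537 genes, with no filter on level, 14.9% were above and 15.3% below. In the blocked fit 0.972% of the 17795 genes tested were called higher and 0.0562% lower. The counts are read against those shares and carry no test. List medians are differences from the mean of the 3 GFP Dex libraries unless stated.

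Several lists of genes known from other tissues had more members above than below, and so did 2 epithelial lists: lung epithelial identity genes had 6 of 24 above and 2 below, and keratins 7 of 19 above and 1 below. Of 29 striated muscle genes measured, 15 were above and 1 below, with medians of 1.64 in P300 Dex replicate 1 and 1.09 in replicate 2. RYR1, the calcium release channel of muscle, had 4.19, 4.64 and 5.22 CPM in GFP Dex and 72.1 and 21.1 CPM in P300 Dex (log2 fold change 3.31 ± 0.56; adjusted p = 0.0752; blocked 9.7e-06). The cardiac troponin T gene TNNT2 had 1.53, 0.639 and 0.156 CPM in GFP Dex and 34.4 and 6.55 CPM in P300 Dex. The blocked fit tested 17 of the muscle genes and called 5 higher and 0 lower, against 0.972% higher over all genes tested.

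Of 33 neuronal genes 15 were above and 2 below, with medians of 0.76 and 0.88. The blocked fit tested 29 of them and called 8 higher and 0 lower, against 0.972% higher over all genes tested. NRXN2, a presynaptic adhesion protein, had 0.484, 0.879 and 0.701 CPM in GFP Dex and 44.0 and 6.80 CPM in P300 Dex. NEFM, a neurofilament subunit, had 1.05, 0.719 and 0.623 CPM in GFP Dex and 48.4 and 2.84 CPM in P300 Dex, so that most of its difference lay in replicate 1. Of 48 potassium and sodium channel genes 17 were above and 1 below, with medians of 1.25 and 0.59. The blocked fit tested 38 of them and called 5 higher and 0 lower.

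Photoreceptor and lens genes had 11 of 23 above and 0 below, with medians of 2.43 and 0.98. None passed either fit: no member was called by edgeR with 10 libraries or in the blocked fit, where 11 of the 23 were tested. Of 27 collagen genes 10 were above and 3 below, and COL6A3 and COL9A3 were the 2 called in the blocked fit, where 24 were tested. COL9A3, a cartilage collagen, had 0.403, 0.879 and 0.545 CPM in GFP Dex and 10.9 and 5.56 CPM in P300 Dex. Some markers of other cell types also had higher values in P300 Dex: 4 of the 9 hematopoietic and endothelial markers, of which 6 were in the table, lay above. Their summed level was 2.96 to 3.84 CPM in GFP Dex, and 20.8 and 6.68 CPM in P300 Dex, while the blood-cell marker PTPRC was at 0 in both P300 Dex libraries. Of 7 fibroblast markers 2 lay above, COL1A1 and COL1A2, and DCN was at 0 in replicate 2. Their sums were 14.7 to 32.0 CPM in GFP Dex, and 60.9 and 63.2 CPM in P300 Dex, of which COL1A1 alone gave 44.5 and 61.7 CPM. The longer list of 13 fibroblast and mesenchymal genes had 2 above and 2 below, with sums of 630 to 1048 CPM in GFP Dex and 1179 and 560 CPM in P300 Dex. Their part in the result was not tested.

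**Figure D3:**
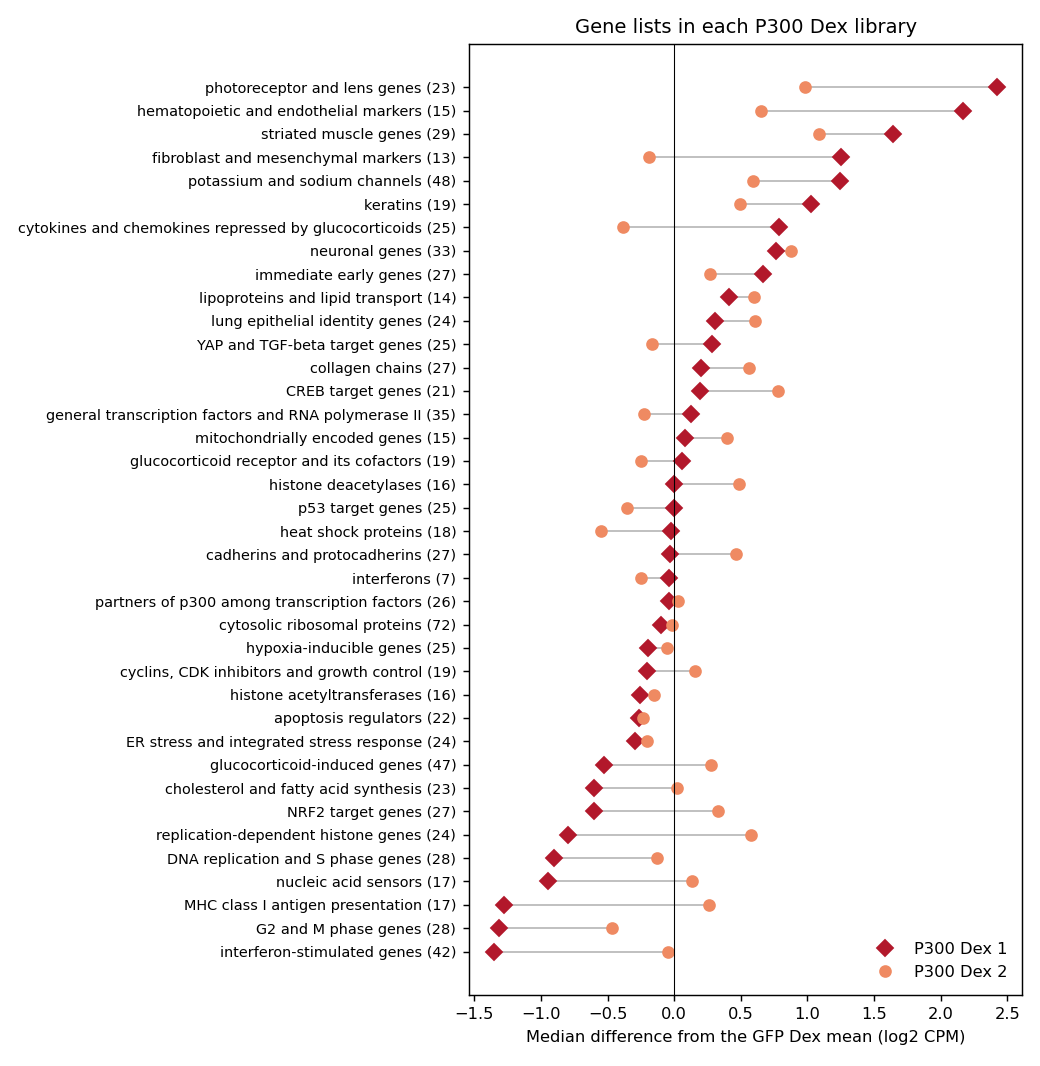
Median difference from the GFP Dex mean (log2 CPM) for 38 gene lists, with the number of genes in the table in brackets, for P300 Dex replicate 1 (dark diamonds) and replicate 2 (light circles). Photoreceptor genes lie at 2.43 and 0.98 and interferon-stimulated genes at -1.35 and -0.04, and the medians of 14 lists have opposite signs in the 2 libraries.

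Summed levels were also compared over all genes grouped by their level in the GFP EtOH libraries, which do not enter this comparison. The 1036 genes listed at 0 there had summed levels of 25.5, 25.3 and 22.2 CPM in GFP Dex and 890 and 113 CPM in P300 Dex, ratios to the GFP Dex mean of 36.6 and 4.64. For the 6993 genes of 0.1 to 1 CPM the ratios were 3.03 and 1.42. For the 2155 genes over 100 CPM they were 0.907 and 1.11. A minority of genes carried these sums in replicate 2: its median difference was 0.00 for the genes at 0 and -0.14 for those of 0.1 to 1 CPM, where replicate 1 had 2.18 and 0.30. Of the genes at 0, 9.46% had both P300 Dex libraries above all GFP Dex libraries, against 14.9% of all genes. Both lay below for 0.579%, against 15.3% of all genes. A gene with 0 counts in a P300 Dex library cannot lie above, and a gene with 0 in a GFP Dex library cannot lie below. More genes exceeded 1 CPM in P300 Dex, 18168 and 16458, than in GFP Dex, 15502 to 16165, but fewer had any count, 22193 and 21076 against 22869 to 23387. The P300 Dex libraries were the shallower ones, with 8154466 and 8992790 counts outside EP300 against 12339524 to 13118396. Genes with counts in all 3 GFP Dex libraries and 0 in both P300 Dex libraries also occurred, and their number was not taken. A count in both P300 Dex libraries and 0 in all 3 GFP Dex libraries was seen for 136 of 25537 genes. The counts of these 136 genes went down to 1 in each P300 Dex library, as for CLRN1. Among them NEUROD1, a transcription factor of neuronal differentiation, had 4.46 and 1.61 CPM in P300 Dex, at least 56.2-fold higher in replicate 1 and at least 20.2-fold higher in replicate 2 than a floor of 3 counts over the GFP Dex group. LRRC55, an auxiliary subunit of potassium channels, had 6.34 and 2.60 CPM, at least 79.8-fold and at least 32.7-fold higher than that floor. Both were chosen after their values were seen.

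Genes that Dex is known to induce split by library. Of 47 such genes 4 were above all GFP Dex libraries in both P300 Dex libraries and 9 below. Their medians were -0.53 in replicate 1 and 0.28 in replicate 2. Against the GFP Dex library of the same number they were -0.55 and 0.03. For 17 of the 47 (36.2%) replicate 1 lay below every GFP Dex library while replicate 2 lay above every one, against 15% of all genes. The same split was seen for 13 of 42 interferon-stimulated genes (31.0%) and 6 of 17 genes of MHC class I antigen presentation (35.3%). TSC22D3, which encodes the anti-inflammatory protein GILZ, had 168, 200 and 149 CPM in GFP Dex and 51.0 and 400 CPM in P300 Dex. CEBPD, a transcription factor of acute responses, had 101.1, 170 and 92.3 CPM in GFP Dex and 44.3 and 440 CPM in P300 Dex. In both genes the P300 Dex libraries fell on opposite sides of the GFP Dex range.

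DUSP1, a phosphatase that switches off MAP kinases, had 534, 612 and 522 CPM in GFP Dex and 340 and 1072 CPM in P300 Dex. ZFP36, a protein that destabilises cytokine mRNA, had 304, 436 and 303 CPM in GFP Dex and 199 and 709 CPM in P300 Dex. The clock gene PER1 had 151, 207 and 148 CPM in GFP Dex and 148 and 337 CPM in P300 Dex, and the transcription factor gene TFCP2L1 had 39.2, 75.9 and 42.0 CPM against 26.7 and 111 CPM. FKBP5, a chaperone that restrains the receptor, had 102, 147 and 93.4 CPM in GFP Dex and 35.9 and 147 CPM in P300 Dex. PDK4, which limits glucose oxidation, had 229, 307 and 211 CPM in GFP Dex and 88.2 and 292 CPM in P300 Dex, so these last 2 were low in replicate 1 and within the GFP Dex range in replicate 2.

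Not every member followed that order. SGK1, a kinase that raises sodium uptake, had 148, 131 and 140 CPM in GFP Dex and 169 and 72.3 CPM in P300 Dex, the reverse order. ERRFI1, an inhibitor of the EGF receptor, had 369, 363 and 335 CPM in GFP Dex and 245 and 247 CPM in P300 Dex, below in both (log2 fold change -0.53 ± 0.27; adjusted p = 0.45; blocked 0.79). TIPARP, a mono-ADP-ribosyltransferase, had 463, 278 and 422 CPM in GFP Dex and 262 and 171 CPM in P300 Dex. For the genes TSC22D3, CEBPD, DUSP1, ZFP36, PER1, TFCP2L1, FKBP5, PDK4 and SGK1 the adjusted p was 0.63 or more in the planned fit and 0.69 or more in the blocked one, and these 9, with ERRFI1 and TIPARP, were chosen after their values were seen. The blocked fit tested 44 members and called 1 higher and 1 lower, against 0.972% higher and 0.0562% lower over all genes tested. CDKN1C, an inhibitor of cyclin-dependent kinases, had 3.55, 6.39 and 2.57 CPM in GFP Dex and 30.3 and 23.4 CPM in P300 Dex (log2 fold change 2.68 ± 0.54; adjusted p = 0.0995; blocked 0.00248). BIRC3, an inhibitor of apoptosis that NF-kappaB also induces, had 417, 221 and 370 CPM in GFP Dex and 134 and 81.2 CPM in P300 Dex (log2 fold change -1.64 ± 0.60; adjusted p = 0.29; blocked 0.0238).

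**Figure D4:**
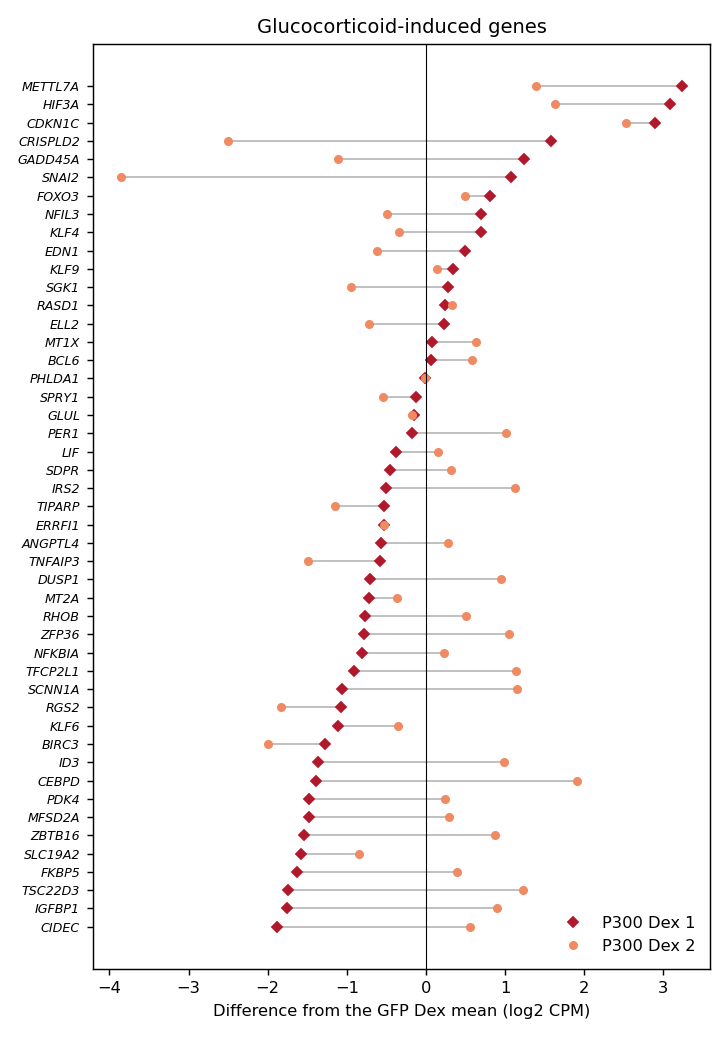
Difference from the GFP Dex mean (log2 CPM) for each of the 47 glucocorticoid-induced genes in P300 Dex replicate 1 (dark diamonds) and replicate 2 (light circles), ordered by replicate 1. In 17 genes replicate 1 lies below and replicate 2 above all GFP Dex libraries, and TSC22D3 sits at -1.74 and 1.23.

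Interferon-stimulated genes, which cells turn on against viruses and foreign nucleic acid, were low in P300 Dex replicate 1 and split in replicate 2. Of 42 genes 0 were above all GFP Dex libraries and 20 below, with medians of -1.35 and -0.04. Against the GFP Dex library of the same number the medians were -1.32 and -0.22. Replicate 1 lay below every GFP Dex library for 41 of the 42 and replicate 2 for 20, where the shares over all genes were 38.1% and 33.3%. IFIT3, which binds viral RNA in a complex with other IFIT proteins, had 1352, 1253 and 1050 CPM in GFP Dex and 524 and 531 CPM in P300 Dex (log2 fold change -1.21 ± 0.31; adjusted p = 0.17; blocked 0.0588). DDX58, the RNA sensor RIG-I, had 522, 505 and 501 CPM in GFP Dex and 235 and 242 CPM in P300 Dex. Both genes were lower by a like amount in both P300 Dex libraries. The blocked fit tested all 42 members and called 2 lower, against 0.0562% lower over all genes tested. IFIT2 had 1078, 1038 and 535 CPM in GFP Dex and 385 and 281 CPM in P300 Dex (blocked adjusted p = 0.00386; planned 0.30), and RSAD2, the antiviral enzyme viperin, had 245, 112 and 106 CPM against 63.5 and 44.8 CPM (blocked 0.0207; planned 0.22). Genes of MHC class I antigen presentation had 0 of 17 above and 4 below, with medians of -1.28 and 0.26. Against the GFP Dex library of the same number the medians were -1.13 and -0.08, so the sign in replicate 2 depends on the reference. B2M, the light chain of MHC class I, had 517, 721 and 389 CPM in GFP Dex and 277 and 271 CPM in P300 Dex (adjusted p = 0.31; blocked 0.19).

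Genes of the G2 and M phases, which run chromosome segregation, had 0 of 28 above and 21 below, with medians of -1.32 and -0.47, and none was called by edgeR in the 10-library or the blocked fit. TOP2A, the topoisomerase that untangles sister chromosomes, had 400, 389 and 558 CPM in GFP Dex and 147 and 214 CPM in P300 Dex (log2 fold change -1.32 ± 0.32; adjusted p = 0.16; blocked 0.20). CCNB1, the cyclin of mitotic entry, had 79.4, 68.8 and 118 CPM in GFP Dex and 39.0 and 35.0 CPM in P300 Dex. DNA replication and S phase genes had 0 of 28 above and 12 below, with medians of -0.90 and -0.13. Fewer cycling cells and less RNA per cell cannot be told apart in these bulk libraries.

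**Figure D5:**
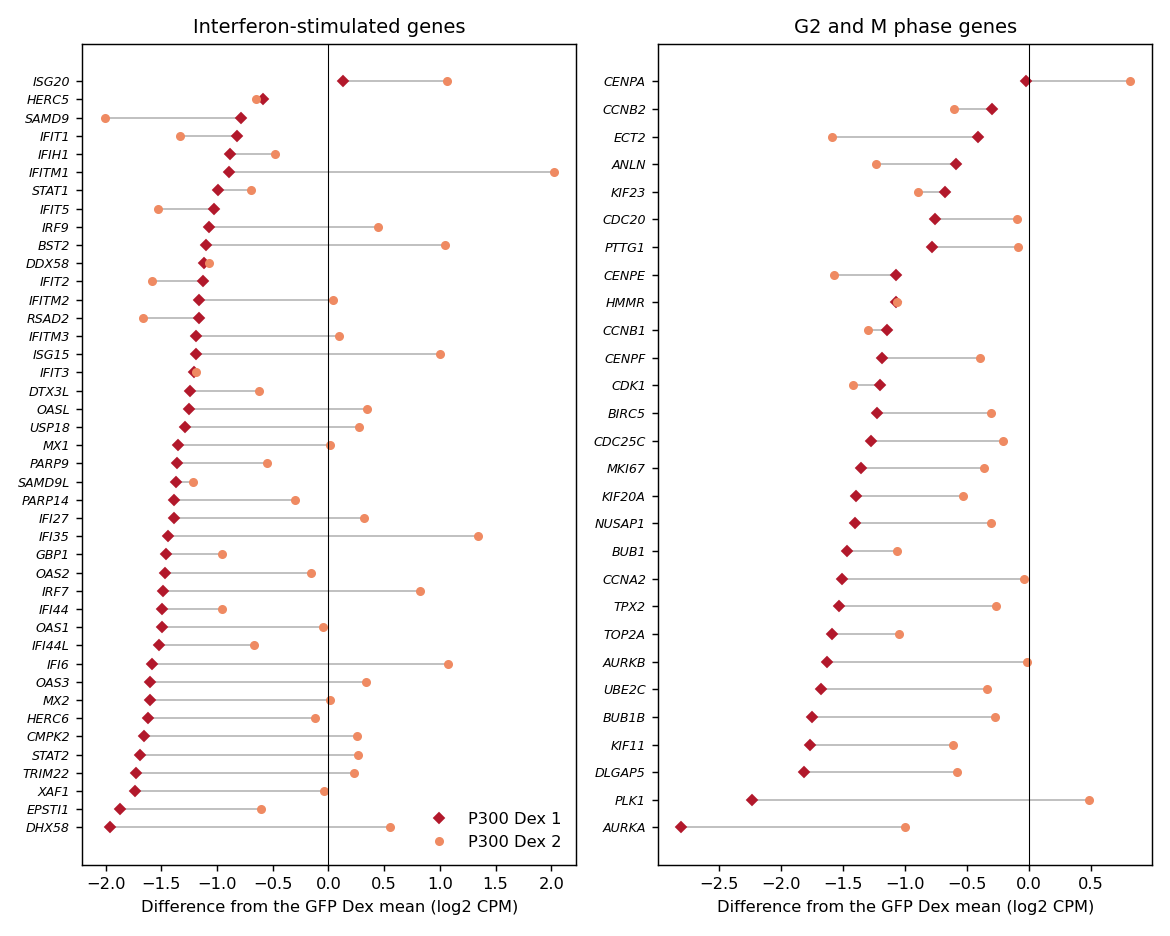
Difference from the GFP Dex mean (log2 CPM) for 42 interferon-stimulated genes (left) and 28 G2 and M phase genes (right) in P300 Dex replicate 1 (dark diamonds) and replicate 2 (light circles). All but 1 of the interferon-stimulated genes lie below 0 in replicate 1, while 20 of 42 lie above 0 in replicate 2, and 26 of the 28 G2 and M phase genes lie below 0 in both.

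The lower genes with the smallest p-values in the planned test, none of which passed, included cell cycle genes. MELK, a kinase of dividing cells, had 50.5, 49.6 and 69.5 CPM in GFP Dex and 17.8 and 18.2 CPM in P300 Dex (log2 fold change -1.65 ± 0.33; adjusted p = 0.0995; blocked 0.13). ASPM, a protein of the mitotic spindle poles, had 152, 193 and 196 CPM in GFP Dex and 52.6 and 75.9 CPM in P300 Dex. PNPT1, an RNA-degrading enzyme of mitochondria, had 325, 308 and 362 CPM in GFP Dex and 132 and 160 CPM in P300 Dex. The 10 genes called lower in the blocked fit were BIRC3, IFIT2, RSAD2, IL8, GOLT1B, GPX8, RBM43, HIST1H2AM, KRT8P5 and RNA28S5, of which 9 lay below all GFP Dex libraries in both P300 Dex libraries. With a GC correction that fit called only 5 of these 10 lower. IL8, a chemokine that attracts neutrophils, had 33.1, 32.0 and 21.4 CPM in GFP Dex and 17.6 and 3.83 CPM in P300 Dex (blocked adjusted p = 0.0457). Of the 30 settings, only that blocked fit called IL8. RNA28S5, a copy of the 28S ribosomal RNA gene, had 3132, 48556 and 2094 CPM in GFP Dex and 2173 and 4286 CPM in P300 Dex, so its call sits with GFP Dex replicate 2, and its log2 fold change turned from -2.47 to 0.31 without that library. Copies of this gene and of histone genes are near-identical and their counts are uncertain, as is KRT8P5, a pseudogene of KRT8. RPPH1, the RNA of ribonuclease P, had 968, 1254 and 720 CPM in GFP Dex and 2018 and 6744 CPM in P300 Dex, and RMRP and RN7SL2, also short structural RNAs, were likewise highest in replicate 2.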

How the data were processed

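Counts per gene in 10 RNA-seq libraries were read from the table the authors deposited, whole numbers with no normalization per the file headers. The submitters' processing notes name the build GRCh37 and, with no order given, DESeq2 1.10.1, HTSeq 0.6.1p1, STAR 2.4.2a and cutadapt. No source used here gives the annotation or the strand setting, so counts of overlapping genes, antisense pairs and close copies are uncertain. The deposited normalized columns and threshold file were not used.

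Of 25538 genes, EP300 was removed before library sizes and TMM factors were computed. CPM use those scaled sizes, with a prior count of 2 on the log2 scale. The planned test was the edgeR 4.0.16 quasi-likelihood test (R 4.3.3, default expression filter by group, two-sided, Benjamini-Hochberg over all genes tested, threshold 0.05, 6 residual degrees of freedom). limma 3.58.1 and DESeq2 1.42.0 gave alternatives, and other scalings, filters, libraries left out and fits with the replicate number as a block were tried. The script was tested on simulated data. GC content came from GENCODE 29 for 97.0% of the genes tested. Floors (3 counts over a group) cover counting error only. Each SE is the size of the log2 fold change over the square root of the quasi-likelihood F statistic. It therefore includes the fitted spread between libraries.

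The replicate numbers, taken from the labels, were judged to pair the samples by their deviations from group means. These correlated at 0.119 to 0.592 in all 13 pairs of libraries of one number. The 24 pairs of different numbers ran from -0.474 to 0.239. All pairs of number 1 with number 3 were positive, and all pairs of number 2 with another number were negative. P300 Dex replicate 1 with GFP EtOH replicate 3, at 0.239, exceeded the lowest values within a number. These values set replicate 2 apart more clearly than they match each number. In a P300 group of 2 libraries the deviations are exact opposites. GFP Dex replicate 1 thus had 0.316 with P300 Dex replicate 1 and -0.316 with replicate 2. Many of these values are therefore fixed by others, and the pairs are not separate evidence. The counts of calls under the fits had been seen when these correlations were computed. No 2 Dex libraries of a group differed by as little as sampling noise.

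Named genes were EP300, CREBBP and NR3C1, the called genes or otherwise the 10 smallest p-values in each direction, and up to 4 members of each list by p. Of these, 2 genes are not reported here. Others are stated as chosen after their values were seen. The comparison, the 38 gene lists and the tests were chosen with earlier results of these data known.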

Additional observations from a re-analysis of the deposited data

How the results depend on the processing

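The call of COL6A3 alone stayed at 1 gene under RLE size factors, library sizes alone, EP300 kept in library sizes, a filter of 5 CPM in 2 libraries, a test against a log2 fold of 1, mitochondrial and ribosomal RNA removed, the replicate block on 10 libraries and a GC correction. It moved to 0 with the 5 Dex libraries alone, with replicate numbers 1 and 2 only, and with limma-voom, which had 2658, 854 and 2594 genes at an unadjusted p under 0.05. It moved to 10 with no expression filter, 69 with limma-voom quality weights (54 on the 5 Dex libraries), 690 with DESeq2 (596 on the 5 Dex libraries), and 183 with the replicate block on the 5 Dex libraries. That blocked fit gave 210 without GFP Dex replicate 3 and 191 with a GC correction. Leaving out each of the 10 libraries gave 0 to 479 calls: 479 (418 higher, 61 lower) without P300 Dex replicate 2, when replicate 1 alone stood for its group and was assumed to vary like the others; 0 without GFP Dex replicate 2 or 3, with 1864 and 1329 genes at an unadjusted p under 0.05; and 1 for each of the other 7. The settings with 5 Dex libraries and weights, DESeq2 or GC, the GC correction on 10 libraries, and the blocked fit without replicate 3 were chosen after seeing the data. The cause of these differences was not tested.

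The EP300 level in each library gave a log2 fold change that kept its direction but missed the threshold with the 5 Dex libraries (9.36, adjusted p = 0.167), with numbers 1 and 2 (9.29, adjusted p = 0.43), and without any 1 GFP Dex library (9.26 to 9.34). Leaving out P300 Dex replicate 1 gave the lowest value, 6.35, and leaving out replicate 2 the highest, 10.14. Of 87 genes followed, 13 changed direction somewhere. TSC22D3 (0.39 in the planned fit) was -0.56 and -0.31 with the replicate block on 10 and 5 libraries, -0.27 with limma-voom, -0.20 and -0.13 with its quality weights on 10 and 5 libraries, -0.30 with the block without GFP Dex replicate 3, -0.40 with the block and GC correction, and -1.80 without P300 Dex replicate 2. Without that library CEBPD was -1.50, PER1 -0.24, DUSP1 -0.76, ZFP36 -0.85, TFCP2L1 -1.02 and SGK1 0.23, while FKBP5 was -1.71, PDK4 -1.54, NFKBIA -0.86, ANGPTL4 -0.64 and RNA28S5 -3.10. With the block and GC correction CEBPD was -0.31, PER1 -0.025, DUSP1 -0.077, ZFP36 -0.10 and NR3C1 0.0059. Without P300 Dex replicate 1 FKBP5 was 0.34, PDK4 0.20, NFKBIA 0.21 and ANGPTL4 0.24, while TSC22D3 was 1.20, CEBPD 1.84, PER1 0.97, DUSP1 0.93, ZFP36 1.01, TFCP2L1 1.05 and SGK1 -0.97. With a GC correction FKBP5 was 0.15, PDK4 0.15 and SGK1 0.062. Without GFP Dex replicate 2 RNA28S5 was 0.31 and ANGPTL4 0.0049. The cause of these changes of direction was not tested.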
